A study of Homo sapiens with 7 samples.

Results

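The genes described here encode the subunits of integrins and laminins, 37 of the 18817 gene rows in the tables. They were chosen by symbol alone: 18 integrin alpha subunits, 7 integrin beta subunits and 12 laminin chains. RNA came from H4 cells, an established human neuroglioma line, carrying opto-PKR. In this construct the light-clustering protein Cry2Olig is joined to PKR, a kinase of the translation factor eIF2 whose activity sets off the integrated stress response. All groups share the cell line, the construct, a glass-bottom plate treated with fibronectin, and growth in DMEM with serum. They differ in minutes of continuous blue light at a device setting of 7.5 mcd: 0, 60, 120, 240, 480, 600 and 720 min, with 1 library at each time. No value therefore has a replicate, and light cannot be told apart from time in the plate.

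Integrins are the receptors that tie a cell to the matrix around it. Each is a pair of an alpha and a beta subunit, and the pairing decides the ligand: alpha5-beta1 and the alphaV integrins bind fibronectin or other ligands with an RGD site, alpha1-beta1 and alpha2-beta1 bind collagen, and alpha3-beta1, alpha6-beta1 and alpha6-beta4 bind laminin. Laminins are secreted trimers of an alpha, a beta and a gamma chain that form the sheet of the basement membrane, and a cell must make all 3 kinds of chain to secrete a trimer. In glioma, integrins and laminins are known for their part in invasion along vessels and fibre tracts.

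Levels are CPM, transcripts counted at their 3' ends and scaled to a library of 1e+06. Such a method gives 1 count per captured transcript whatever its length, so levels of different genes can be set side by side on this scale. Gene counts summed to between 7.05e+06 and 8.91e+06 transcripts in the 6 complete libraries. The deposited 480 min table stops part way through the alphabet and held 5.27e+06, but every member's name lies within it. Of the neural or glial markers, VIM stood between 687 and 901 CPM in the 6 complete libraries and CD44 between 498 and 699.9 CPM in all 7, while NES, a neural progenitor marker, did not exceed 1.64 CPM. In the 6 complete libraries SOX2 lay between 15.9 and 55.5 CPM and OLIG2 between 5.03 and 20.5 CPM, both transcription factors of neural precursors. The other 2 markers of this list, GFAP and S100B, had no counts in any library. Of the epithelial markers EPCAM, CDH1 and KRT5 had at most 2 counts in a library, but KRT18 lay between 95.9 and 185 CPM, KRT8 between 10.9 and 22.3 CPM and ESRP1 between 0.418 and 59.4 CPM. The leukocyte markers PTPRC and CD14 had at most 4.

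Of the 37 members, 25 had at least 10 counts in at least 3 libraries and were tested. The other 12 were ITGA7, ITGA8, ITGA9, ITGA10, ITGA11, ITGA2B, ITGAD, ITGAL, ITGB2, ITGB3, ITGB7 and LAMB4, and none exceeded 23 counts or 2.69 CPM in any library. The subunits detected in quantity were thus a subset of the family. Among beta subunits ITGB1, the partner of most alpha subunits, averaged 580.2 CPM over the 7 libraries, ITGB5 150.4 CPM and ITGB8 110.0 CPM, against 2.19 CPM for ITGB4, the hemidesmosome subunit. Among alpha subunits ITGAV averaged 147 CPM, ITGA2 91.5 CPM and ITGA3 67.4 CPM. The laminin genes were led by the gamma chain LAMC1 at 343 CPM and the beta chain LAMB1 at 274 CPM, while the most abundant alpha chain, LAMA2, averaged 21.1 CPM.

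Time courses were tested in 2 ways with edgeR's quasi-likelihood test, each adjusted over all 13566 genes tested. The trend is a straight line in minutes of light, and its value is the log2 change it makes over 720 min. The bend is the curvature of a fitted parabola, and its value says how far the curve at 360 min lies above the midpoint of its 2 ends, in log2. A positive bend thus means above the mean of the 2 ends, and need not mean above each of them. Of the 25 tested members 2 had a trend, 1 rising and 1 falling, which is 8% of them, and over all genes 6.86% had one. A bend was called for 9 of the 25, or 36%, of which 6 were upward and 3 downward, and over all genes the share was 31.3%. Both counts thus lie near the share over all genes. In bulk RNA, fewer cells that carry a transcript and less of it per cell cannot be told apart. At an unadjusted p under 0.05, 7 members had a trend and 11 a bend, while 23.1% and 43.5% of all genes did.

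**Figure D1:**
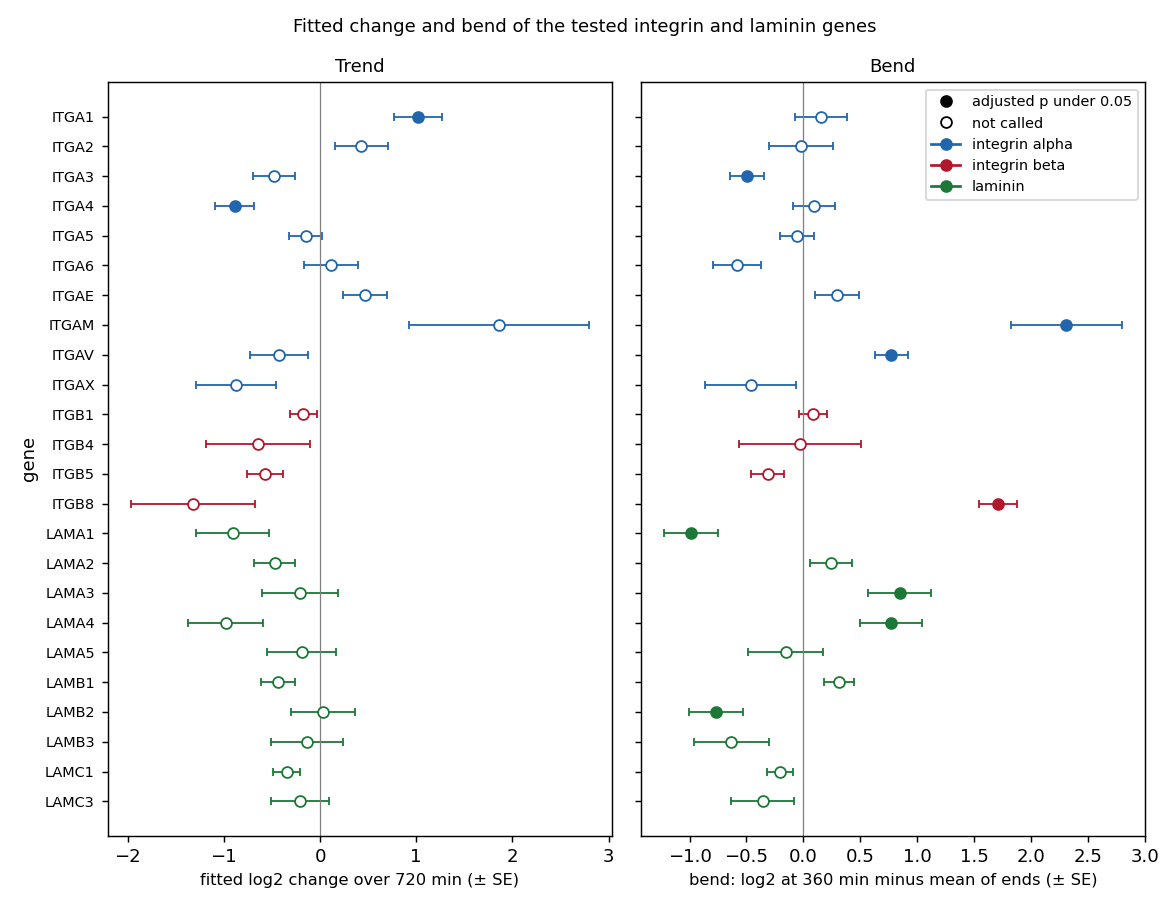
Fitted log2 change over 720 min (left) and bend in log2 (right) of 24 of the tested genes, with SE; blue is integrin alpha, red integrin beta, green laminin, and filled points have an adjusted p under 0.05. ITGB8 and ITGAM bent upward by 1.71 and 2.31, LAMA1 bent downward by -0.99, and only ITGA1 and ITGA4 had a trend.

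ITGB8 was the member with the firmest call. Its subunit pairs only with alphaV, and alphaV-beta8 is known for binding the latent forms of TGF-beta1 and TGF-beta3 through their RGD site and making them active. ITGB8 stood at 79.3 CPM (0 min), 118 (60 min), 154 (120 min), 195 (240 min), 120.4 (480 min), 66.9 (600 min) and 35.9 CPM (720 min). It was thus higher in each of the first 3 lit libraries than in the one before, highest at 240 min, and below the unlit library at 600 and 720 min. Its bend was 1.71 ± 0.17 (SE, edgeR adjusted p = 0.000412), and it was called under all 15 alternatives tried, with bends from 1.53 to 2.05. Against 0 min, ITGB8 was 2.46-fold higher at 240 min (95% counting interval 2.25 to 2.69) and 0.453 of the 0 min level at 720 min (0.392 to 0.522). At 120 min the ratio was 1.95-fold, and its log2 value of 0.96 lies just under the 2-fold limit. The UMI counts of ITGB8 were whole in 4 of the 7 libraries only, and no source used here says how reads were divided between genes. Its trend of -1.32 ± 0.65 did not pass (edgeR adjusted p = 0.26).

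ITGAV encodes the alphaV subunit, the partner of beta8 that, among the members, also pairs with beta1, beta3 and beta5. It stood at 130.4 CPM (0 min), 154 (60 min), 173 (120 min), 170.4 (240 min), 169.9 (480 min), 142 (600 min) and 87.3 CPM (720 min). The level was nearly flat from 120 to 480 min, above 0 min, and lowest at 720 min. The bend was 0.77 ± 0.14 (edgeR adjusted p = 0.00325). Without the 720 min library it was 0.58 and no longer called (edgeR adjusted p = 0.0503, range over the alternatives 0.00022 to 0.0503). ITGAV and ITGB8 thus both bent upward, and both were lowest at 720 min.

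The other beta partners of alphaV among the members had no call, and no gene row was named ITGB6. ITGB5, whose product binds vitronectin with alphaV, stood at 203 CPM (0 min), 175 (60 min), 143 (120 min), 151 (240 min), 119.6 (480 min), 132 (600 min) and 129 CPM (720 min). Every lit library was below the unlit one, but neither its trend of -0.57 ± 0.19 (edgeR adjusted p = 0.107) nor its bend of -0.31 ± 0.14 (adjusted p = 0.119) passed. ITGB3 had between 5 and 12 counts. ITGB8 made up 28% (0 min), 40.2% (60 min), 51.8% (120 min), 56.1% (240 min), 49.9% (480 min), 33.4% (600 min) and 21.7% (720 min) of the summed counts of ITGB3, ITGB5 and ITGB8. The exact binomial 95% interval was 26.2 to 29.8% at 0 min, 54.4 to 57.9% at 240 min and 19.4 to 24% at 720 min. Its count exceeded that of ITGB5 beyond counting error at 240 min, with 1774 against 1374, and was close to it at 120 and 480 min. In the other 4 libraries ITGB5 was ahead.

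**Figure D2:**
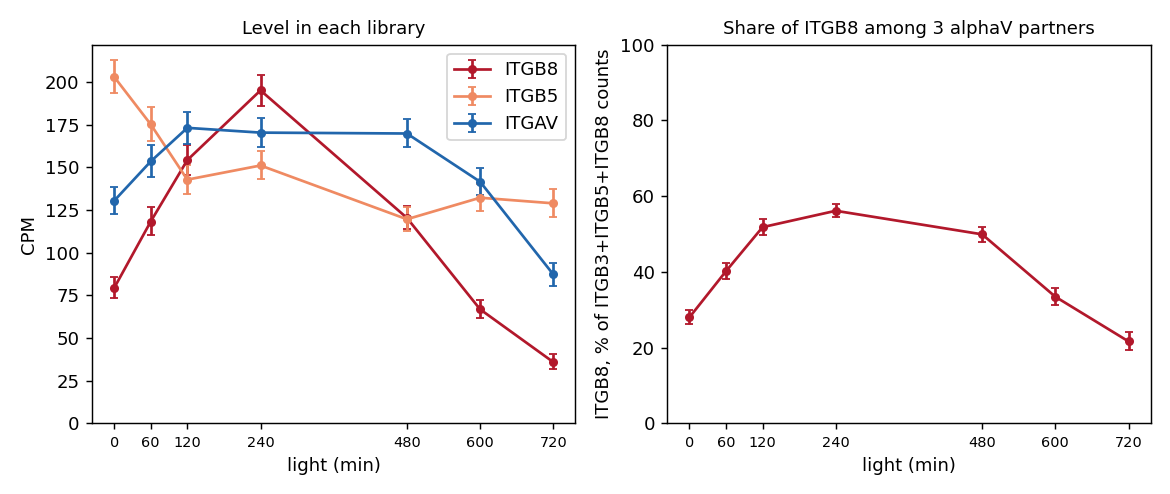
Left, CPM of ITGB8, ITGB5 and ITGAV at each time of light, with 95% counting intervals; right, ITGB8 as a percent of the summed counts of ITGB3, ITGB5 and ITGB8, with exact binomial 95% intervals. ITGB8 is highest at 240 min, at 195 CPM and 56.1% of the sum, and lowest at 720 min, at 35.9 CPM and 21.7%.

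ITGB1, the shared beta subunit, moved little by comparison. It stood at 620.5 CPM (0 min), 589.6 (60 min), 617 (120 min), 539 (240 min), 620.0 (480 min), 578 (600 min) and 498 CPM (720 min). Its trend was -0.18 ± 0.14 (edgeR adjusted p = 0.498) and its bend 0.09 ± 0.13 (adjusted p = 0.627), with a sign that changed to -0.080 on UMI counts. The ratio of 720 to 0 min was 0.803 (0.77 to 0.837). ITGB4 was measured at 10 to 28 counts and passed neither test. Of the 4 tested beta subunits, ITGB8 alone had a call, an upward bend.

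The 2 trends belonged to alpha subunits of opposite direction. ITGA1, a collagen receptor subunit, rose by 1.02 ± 0.25 on the log2 scale (SE, edgeR adjusted p = 0.0404). Its levels were 19.8 CPM (0 min), 16.0 (60 min), 18.6 (120 min), 20.5 (240 min), 32.4 (480 min), 35.1 (600 min) and 29.5 CPM (720 min). The first 4 libraries lay near each other and the last 3 above all of them. PELO, a ribosome rescue factor gene, lies within ITGA1 in the RefSeq annotation, so reads at this locus could belong to either where the counting did not separate them.

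ITGA4, which with beta1 binds fibronectin and the endothelial protein VCAM1, fell by 0.89 (SE 0.20, edgeR adjusted p = 0.0313). It stood at 57.1 CPM (0 min), 69.3 (60 min), 64.8 (120 min), 48.5 (240 min), 45.3 (480 min), 40.6 (600 min) and 33.9 CPM (720 min). From 60 min on, each library was below the one before. CERKL overlaps ITGA4 in the RefSeq annotation, but strands were not compared, so whether the same limit holds here was not tested. The UMI counts of ITGA1 and ITGA4 were whole in all 7 libraries. The trends of both genes were lost without the 60 min library (ITGA1 0.92, ITGA4 -0.80), the 120 min (0.99, -0.84), the 480 min (0.95, -0.90) or the 600 min library (0.93, -0.90), and that of ITGA4 also without the 720 min one (-0.81). Log and rank time ended both calls too.

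ITGA2, the other tested subunit of a collagen receptor, lies beside ITGA1 on chromosome 5. It stood at 75.7 CPM (0 min), 92.4 (60 min), 93.4 (120 min), 58.6 (240 min), 109 (480 min), 116 (600 min) and 95.3 CPM (720 min). Both genes were highest at 600 min, but ITGA2 passed neither test (trend 0.43 ± 0.27, edgeR adjusted p = 0.393) and was lowest at 240 min. Its UMI counts were not whole in any library. ITGA5, the fibronectin receptor subunit, lay between 47.4 and 55.9 CPM and passed neither test, in cells on a plate treated with its ligand.

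Of the laminin-binding alpha subunits 1, ITGA3, had a downward bend. It stood at 92.7 CPM (0 min), 72.4 (60 min), 73.0 (120 min), 56.6 (240 min), 56.0 (480 min), 56.2 (600 min) and 64.8 CPM (720 min). Its bend was -0.49 ± 0.15 (edgeR adjusted p = 0.0265), and it was lost without the 0 min (-0.42), 240 min (-0.45) or 720 min library (-0.53) and in log (-0.24) or rank time (-0.37). ITGA6 stood at 48.7 CPM (0 min), 29.8 (240 min) and 57.8 CPM (720 min), with the other 4 libraries between 44.0 and 51.4 CPM, so the 240 min library stood alone below the rest. Its bend of -0.59 ± 0.21 narrowly missed the threshold (edgeR adjusted p = 0.053) and passed with DESeq2 (-0.59), a filter of 50 counts (-0.61) or without the 480 min library (-0.74). ITGA7 had at most 3 counts.

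Among the alpha subunits known from leukocytes, ITGAM had the largest bend of all members, 2.31 ± 0.49 (SE, edgeR adjusted p = 0.00579), at low counts. ITGAM encodes alphaM, which pairs with beta2 to form the complement receptor Mac-1. It had 12 counts (0 min), 7 (60 min), 8 (120 min), 43 (240 min), 72 (480 min), 48 (600 min) and 14 (720 min). The libraries from 240 to 600 min stood apart from the other 4, and the level at 480 min was 7.12 CPM, against 1.40 CPM at 0 min, 5.07-fold higher (2.73 to 10.3). At 43 and 48 counts the 240 and 600 min libraries lie just under the 50 counts required for a fold call. The bend was lost without the 720 min library (1.69) and in log (0.51) or rank time (1.64).

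Its neighbour had no call, and its partner was not tested. ITGAX, next to ITGAM on chromosome 16, had between 14 and 29 counts, was lowest at 480 min and passed neither test. ITGB2, the only known beta partner of alphaM, had 8 counts (0 min), 9 (60 min), 4 (120 min), 4 (240 min), 15 (480 min), 13 (600 min) and 9 (720 min). The list of leukocyte markers had 3 of 5 genes measured, with a summed level of 1.67 to 7.05 CPM in the 6 complete libraries, of which LYZ made up 6.65 CPM at 720 min. PTPRC stood at 0.351 CPM or less, and CD14 was at 0 counts at 240 min. The part of other cells in the ITGAM values was not tested. ITGAE, the alphaE subunit, passed neither test between 14.2 and 22.4 CPM.

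**Figure D3:**
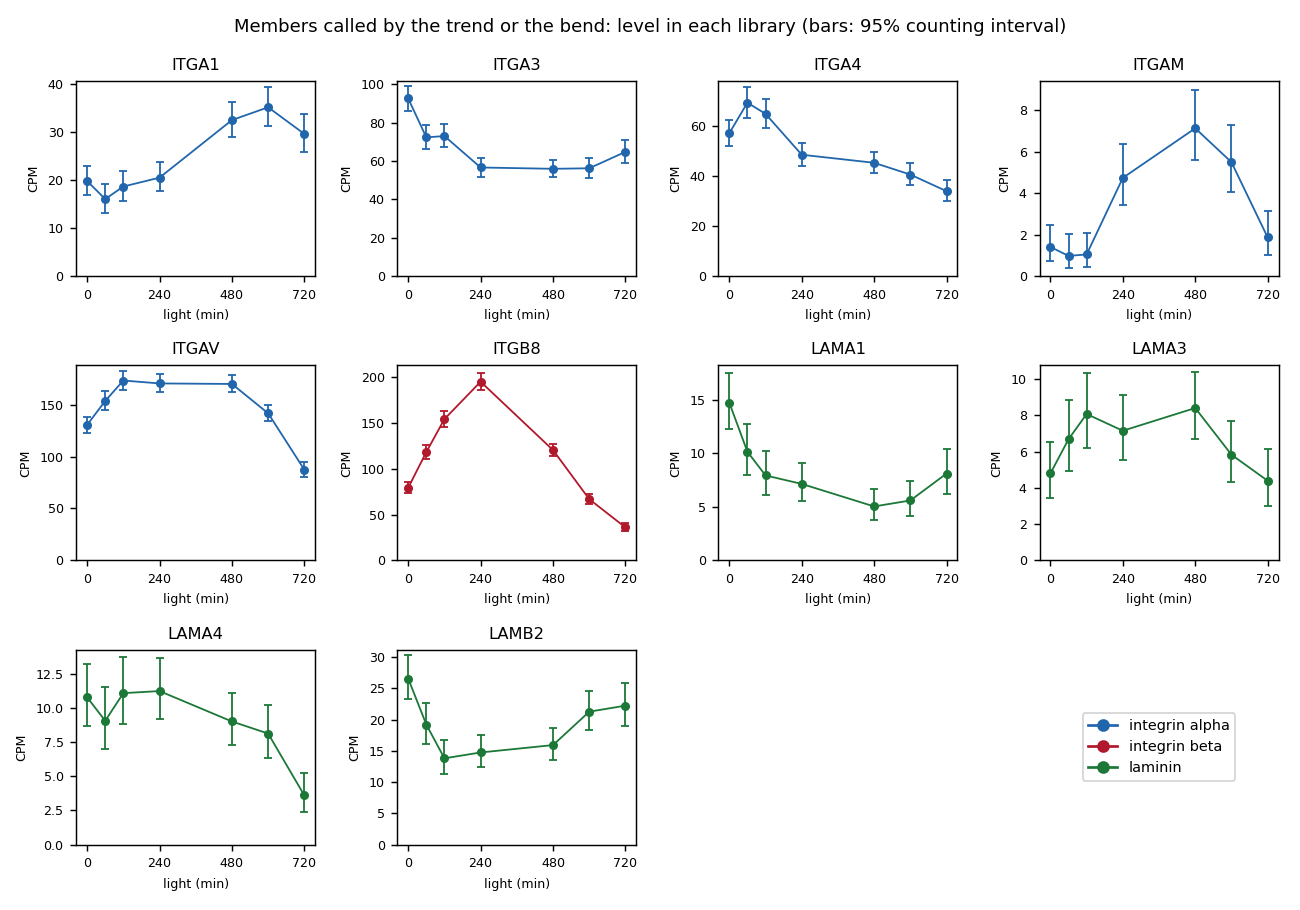
CPM at each time of light for 10 of the genes called by the trend or the bend, with 95% counting intervals from the counts; blue is integrin alpha, red integrin beta, green laminin, and each axis starts at 0. ITGB8, ITGAV, ITGAM, LAMA3 and LAMA4 are highest between 120 and 480 min, while ITGA3, LAMA1 and LAMB2 are highest at 0 min.

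Laminin chains had 5 bends among 11 tested genes, 45.5%, and 0 trends by edgeR, against 31.3% and 6.86% over all genes. For the trend, 4 of the 11 had an unadjusted p under 0.05, against 23.1% of all genes, and none was called with DESeq2. The 5 calls went in both directions, 3 upward and 2 downward. The 2 abundant chains were not among them. LAMB1 stood at 296 CPM (0 min), 296 (60 min), 299 (120 min), 287 (240 min), 286 (480 min), 266 (600 min) and 192 CPM (720 min). It was level to 480 min, and the 720 min library was the lowest, 0.65 of the 0 min level (0.608 to 0.693). LAMC1 stood at 409 CPM (0 min), 378 (60 min), 343 (120 min), 337 (240 min), 297 (480 min), 319 (600 min) and 315 CPM (720 min), each lit library being below the unlit one. Neither gene passed the trend (-0.44 ± 0.18 and -0.34 ± 0.14, edgeR adjusted p = 0.182 and 0.184).

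Of the 5 laminin alpha chains, which carry the main sites that bind integrins, LAMA1 bent downward, LAMA3 and LAMA4 upward, and LAMA2 and LAMA5 had no call. LAMA1, the chain of early embryonic laminin, stood at 14.7 CPM (0 min), 10.2 (60 min), 7.94 (120 min), 7.15 (240 min), 5.04 (480 min), 5.60 (600 min) and 8.12 CPM (720 min). All lit libraries were below the unlit one, with the lowest at 480 min, at 0.342 of the 0 min level (0.242 to 0.477). Its bend was -0.99 ± 0.24 (SE, edgeR adjusted p = 0.0102), lost without the 0 min (-0.88) or 720 min library (-0.87) and on the log time scale (-0.45). LAMA1 made up 19.9% of laminin alpha chain counts at 0 min (exact binomial interval 16.9 to 23.2), 8.96% at 480 min (6.75 to 11.6) and 17.2% at 720 min (13.4 to 21.5).

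LAMA4, an endothelial and mesenchymal chain, stood at 10.8 CPM (0 min), 9.05 (60 min), 11.1 (120 min), 11.2 (240 min), 9.0 (480 min), 8.11 (600 min) and 3.59 CPM (720 min). It was near its unlit level to 240 min, and the 720 min library stood apart at 27 counts, against 92 counts at 0 min, a ratio of 0.334 (0.209 to 0.518). Its bend of 0.77 ± 0.27 barely passed (edgeR adjusted p = 0.0491). It was lost without the 0, 60, 120, 240, 480 or 720 min library (1.03, 0.74, 0.77, 0.84, 0.78 and 0.33) and with DESeq2, read counts, the log time scale, no count filter or a stricter one. LAMA2, the chain of muscle and nerve laminin, lay between 16.1 and 24.1 CPM and LAMA5, the chain of most adult basement membranes, between 11.1 and 20.1 CPM, and neither passed a test.

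LAMA3, an alpha chain of epithelial laminin, stood at 4.80 CPM (0 min), 6.68 (60 min), 8.07 (120 min), 7.15 (240 min), 8.40 (480 min), 5.83 (600 min) and 4.39 CPM (720 min). The libraries from 60 to 600 min were all above both ends, with a bend of 0.85 ± 0.27 (edgeR adjusted p = 0.0358). LAMB3, an epithelial beta chain, stood at 7.37 CPM (0 min), 5.845 (60 min), 4.30 (120 min), 4.62 (240 min), 3.76 (480 min), 6.86 (600 min) and 5.32 CPM (720 min). Its bend of -0.63 ± 0.33 did not pass (edgeR adjusted p = 0.159). Of the epithelial markers 6 of 7 were measured, with a summed level of 116 to 264 CPM in the 6 complete libraries. ESRP1, an epithelial splicing factor, stood at 0.468 CPM (0 min), 7.37 (240 min), 59.4 (480 min) and 57.6 CPM (720 min), while EPCAM and CDH1 were near 0, and their part in the LAMA3 values was not tested. The bend of LAMA3 was lost with read counts, DESeq2 or log time, and it was also lost without the 0 min (0.69), 120 min (0.80), 240 min (1.04), 480 min (0.73), 600 min (0.84) or 720 min library (0.89).

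LAMB2, which takes the place of LAMB1 in laminins of nerve and kidney, stood at 26.6 CPM (0 min), 19.2 (60 min), 13.8 (120 min), 14.7 (240 min), 15.9 (480 min), 21.3 (600 min) and 22.2 CPM (720 min). It was lowest at 120 min, at 0.52 of the 0 min level (0.409 to 0.657), and nearer to it in the last 2 libraries. Its bend was -0.77 ± 0.24 (edgeR adjusted p = 0.029), lost without the 0 min (-0.49) or 240 min library (-0.77). The gamma chain LAMC3 lay between 6.13 and 10.8 CPM and passed neither test.

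Promoter windows are shown for ITGB8, the member whose bend held under all alternatives, and for LAMA3 and LAMB3, which hold matches to the motif searched. They are 300 bases long and span the annotated start (RefSeq, GRCh38.p14), and 25 of the 37 members matched the table by symbol, with 32 windows. Capitals mark TGANTCA, the letters of an AP-1 element, the site of FOS and JUN factors, searched on both strands.
LAMA3, chr18:23872770-23873069, plus strand: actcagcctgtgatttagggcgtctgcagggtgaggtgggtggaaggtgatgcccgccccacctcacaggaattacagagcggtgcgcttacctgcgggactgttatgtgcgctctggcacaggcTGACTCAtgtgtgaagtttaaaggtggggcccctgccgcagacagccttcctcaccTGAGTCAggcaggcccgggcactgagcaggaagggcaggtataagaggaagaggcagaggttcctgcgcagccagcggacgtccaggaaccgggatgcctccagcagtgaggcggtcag
LAMB3, chr1:209651325-209651624, minus strand: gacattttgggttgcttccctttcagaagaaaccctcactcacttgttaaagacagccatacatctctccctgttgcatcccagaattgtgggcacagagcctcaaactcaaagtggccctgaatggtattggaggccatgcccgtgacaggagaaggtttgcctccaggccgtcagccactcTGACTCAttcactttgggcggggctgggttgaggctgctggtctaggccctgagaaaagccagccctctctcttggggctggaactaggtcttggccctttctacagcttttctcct
ITGB8, chr7:20330650-20330949, plus strand: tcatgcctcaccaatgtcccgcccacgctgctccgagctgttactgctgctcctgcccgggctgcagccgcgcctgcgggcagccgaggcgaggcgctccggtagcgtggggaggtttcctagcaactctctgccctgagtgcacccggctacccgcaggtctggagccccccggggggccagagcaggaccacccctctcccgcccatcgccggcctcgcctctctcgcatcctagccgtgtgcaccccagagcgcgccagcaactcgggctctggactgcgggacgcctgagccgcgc

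The LAMA3 window held these letters at 2 places, 125 and 69 bases before the start, and 1 of the 3 LAMB3 windows at 1 place, 67 bases before it. The ITGA5 window was the remaining match among members. Of all 35116 windows, 7.71% held them. LAMA3 and LAMB3 thus share the letters although only LAMA3 had a bend called, and the ITGB8 window had no match. 2 further sets of letters were searched on both strands in the same windows. TGACGTCA, the cAMP response element, was in 0 of the 32 and in 1.85% of all windows. TGATGNAA, the core of the element that ATF4 and C/EBP factors bind together, was in 1, that of ITGB5, and in 3.62% of all. A match in letters is not evidence of binding.

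At single times few members stood at 2-fold or more from the unlit library, among genes with at least 50 counts in either. There were 0 of 20 compared at 60 min and 0 of 21 at 120 min, and over all genes the share was 2.45% and 8.5%. At 240 min 2 of 21 were called (16.2% of all genes), ITGB8 higher and LAMA1 lower. At 480 min it was 2 of 22 (15.6%), ITGAM higher and LAMA1 lower. At 600 min it was LAMA1 alone, 1 of 21 (10.5%), and at 720 min 2 of 20 (9.22%), ITGB8 and LAMA4, both lower. LAMA1 passed the limit narrowly at 240 min, with a log2 ratio of -1.02. ITGB8 (0.96) and LAMB2 (-0.93), both at 120 min, and LAMB3 at 480 min (-0.93) narrowly missed it. The untested ITGA8, the alpha8 subunit, chosen after its values were seen, had 23 counts (0 min), 12 (60 min), 6 (120 min), 3 (240 min), 4 (480 min), 1 (600 min) and 3 (720 min). At 600 min that is 0.0425 of the 0 min level (0.00103 to 0.262), and with no count filter a falling trend was called.

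**Figure D4:**
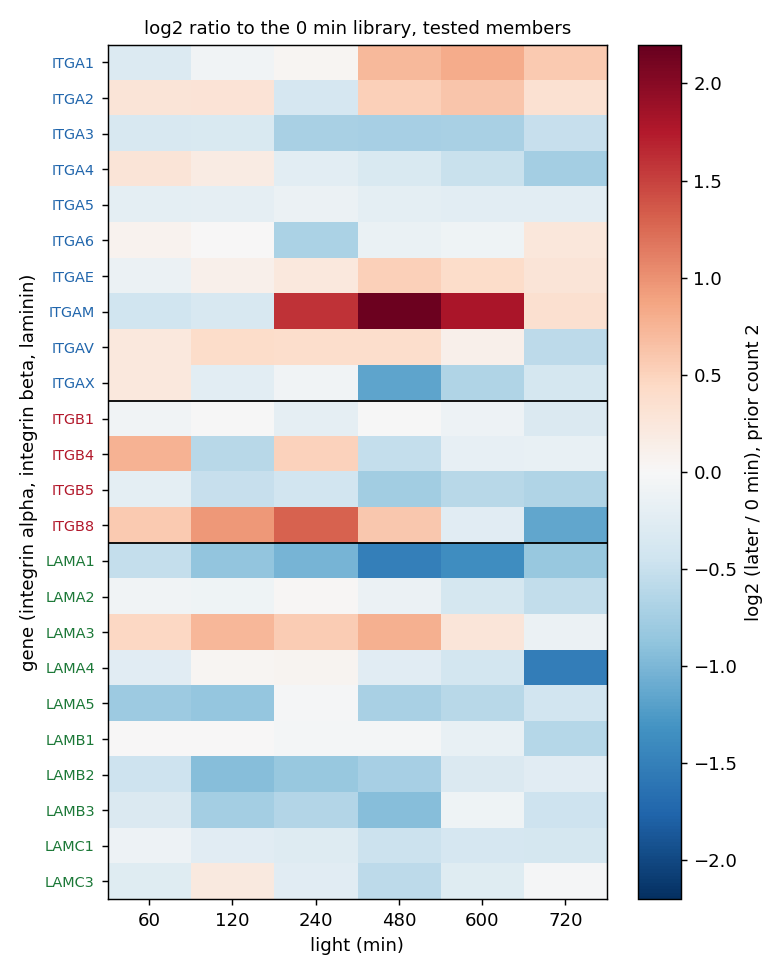
Log2 ratio of each later library to the 0 min library for 24 of the tested genes, in blocks of integrin alpha, integrin beta and laminin genes; red is higher and blue lower than at 0 min, with a prior count of 2. ITGAM reaches 2.16 at 480 min, ITGB8 1.30 at 240 min and -1.14 at 720 min, and LAMA1 is lower at every later time.

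The classes as wholes were then set side by side. Summed over the 12 laminin chains, the level was 825 CPM (0 min), 769 (60 min), 733 (120 min), 724 (240 min), 669.7 (480 min), 674 (600 min) and 594 CPM (720 min), so that 720 min stood at 0.719 of 0 min (0.693 to 0.747). The 7 beta subunits summed to 907 CPM (0 min), 889.6 (60 min), 916 (120 min), 889.9 (240 min), 864 (480 min), 781 (600 min) and 668 CPM (720 min), 0.736 of 0 min (0.71 to 0.762). The 18 alpha subunits lay between 441 and 544 CPM, with 720 min at 0.872 of 0 min (0.833 to 0.912). The laminin sum was below its unlit value in every lit library, and the beta sum was below it beyond these intervals from 480 min. The alpha sum was below its unlit value beyond these intervals at 240 and 720 min but above it at 120 and 480 min.

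These sums are dominated by ITGB1, ITGB5, ITGAV, LAMB1 and LAMC1. The intervals cover counting error only, and they are too narrow where genes fill much of the UMIs, as ITGB1 does. Gene by gene, the median log2 ratio of 720 to 0 min was -0.41 over 11 laminin genes, -0.49 over 4 beta and 0.00 over 10 alpha genes, beside 0.01 over 7708 tested genes in the same part of the alphabet. At that time 1 of 11 laminin, 0 of 4 beta and 5 of 10 alpha genes were above 0, beside 3908 of the 7708. At 240 min the medians were -0.04, 0.15 and -0.11, beside -0.02 over all. By trend, 2 of 11 laminin, 0 of 4 beta and 5 of 10 alpha genes had a positive estimate, beside 6603 of all 13566.

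**Figure D5:**
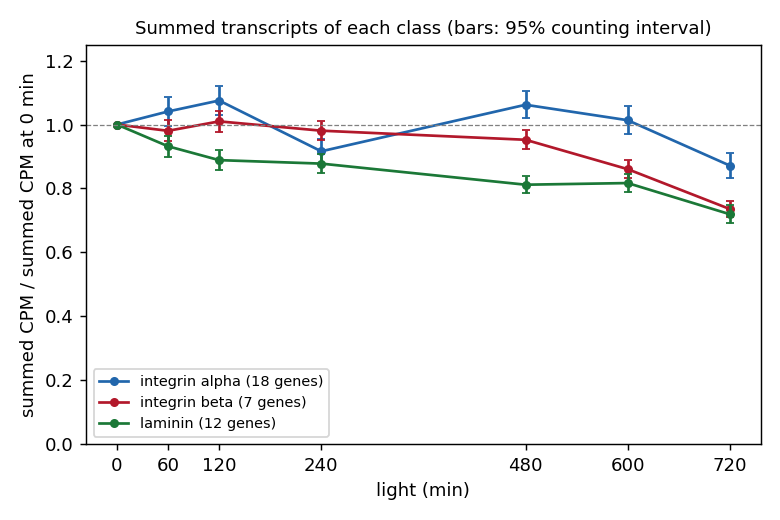
Summed CPM of integrin alpha (18 genes), integrin beta (7 genes) and laminin genes (12 genes) at each time of light, divided by the sum at 0 min, with exact binomial 95% counting intervals; the dashed line is the 0 min level. At 720 min the ratios are 0.872, 0.736 and 0.719.

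The genes around these subunits were read from lists of matrix ligands, other receptors, adaptors, regulators, hemidesmosome parts, proteases and latent TGF-beta. Of 88 listed genes 75 were tested. 1 rose and 5 fell (all genes: 3.92% and 2.93%), and 8 bent upward and 12 downward (17% and 14.3%). Among 15 matrix ligands 2 bent upward and 2 downward: NTN4, a netrin that binds laminin gamma chains, by 1.15 ± 0.25, and SPP1, the integrin ligand osteopontin, by -0.98 ± 0.27. Among 9 other receptors DDR2, a collagen receptor kinase, rose by 2.80 ± 0.43 and also bent by 0.93 ± 0.25, and SDC1, a syndecan, bent by -1.01 ± 0.24 (edgeR adjusted p under the threshold of 0.05 for each). Of the matrix ligands FBN1, the microfibril protein fibrillin-1, fell by 1.28 on the log2 scale (SE 0.26, edgeR adjusted p = 0.0218).

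Of 27 adaptors and kinases 3 bent upward, led by NEDD9, a scaffold of focal adhesions, and 4 downward, led by FLNA, which links integrin tails to actin. NEDD9 bent by 3.40 ± 0.56 (edgeR adjusted p = 0.00201) and was called under every alternative that was run on it. It had 10 counts (0 min), 79 (240 min) and 4 (720 min), so, like ITGB8, it was highest at 240 min and lowest at 720 min. FLNA bent by -0.89 ± 0.20. In the same list 2 genes fell, TNS3, a tensin, by 1.52 (SE 0.25, edgeR adjusted p = 0.0127) and VCL, the actin linker vinculin, by 0.81 (SE 0.19, adjusted p = 0.0393). FBN1, TNS3 and VCL were also named after their values were seen. Of 9 regulators 1 bent upward, ITGBL1 by 0.56 ± 0.19, and 2 downward, led by SHARPIN, an inhibitor of integrin activation, by -0.96 ± 0.20. PLEC, which ties beta4 to keratin, bent by -0.60 ± 0.17 and was the 1 call among 4 tested hemidesmosome genes. MMP14, a membrane-bound matrix protease, bent by -0.89 ± 0.23 and was the 1 call among 5 proteases.

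The latent TGF-beta list includes TGFB1 and TGFB3, the genes of the alphaV-beta8 ligands named above, beside other genes. In it 2 of 6 tested genes fell, against 2.93% of all genes, LTBP2 by 1.22 on the log2 scale (SE 0.31) and LTBP3 by 1.08 (SE 0.24). TGFB2, not the gene of either ligand and chosen after its values were seen, was the single bend in that list, 1.45 ± 0.18 (edgeR adjusted p = 0.000569). It stood at 85.0 CPM (0 min), 117 (60 min), 130.2 (120 min), 225 (240 min), 195 (600 min) and 106 CPM (720 min), with no value at 480 min. Like ITGB8 it was highest at 240 min, but at 720 min it was above its unlit level. TGFB1 stood at 20.8 CPM (0 min), 10.6 (60 min), 9.24 (120 min), 9.79 (240 min), 4.46 (600 min) and 8.38 CPM (720 min). Every measured lit library was thus below the unlit one. Neither its trend of -1.25 ± 0.47 (edgeR adjusted p = 0.162) nor its bend of -0.97 ± 0.37 (adjusted p = 0.0607) passed. TGFB3, with 4 to 25 counts, was not tested.

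Several of these partner genes fell short of the threshold in fits with 1 library fewer. Such fits also have fewer degrees of freedom, so this need not mean that a gene depends on that library. Without the 240 min library the bend of SHARPIN was -1.04, against -0.96 before, while that of SPP1 shrank to -0.40, against -0.98. Without the 0 min library the bends of DDR2 (0.85), FLNA (-0.62), PLEC (-0.56) and MMP14 (-0.82) were lost. Without the 240 min library those of SPP1 (-0.40), DDR2 (0.68), SDC1 (-0.96), FLNA (-0.81), SHARPIN (-1.04) and PLEC (-0.61) were lost. Without the 720 min library those of NTN4 (0.86), SDC1 (-0.76) and MMP14 (-0.70) were lost. ITGBL1 lost its bend without any 1 of the 7 (0.25 to 0.68) and LTBP2 its trend likewise (-1.55 to -0.95). Log time ended the bends of NTN4 (0.15), SPP1 (-0.58), SDC1 (-0.23), ITGBL1 (0.08), DDR2 (-0.0091) and TGFB2 (0.70). The trend of DDR2 was called with any 1 library left out (2.44 to 3.15). That of TNS3 was lost without the 60, 600 or 720 min library (-1.56, -1.54 and -1.25), and that of FBN1 also without the 120 min one (-1.15 for 60 min, -1.31 for 120 min, -1.45 for 600 min and -1.04 for 720 min). That of VCL was kept only without the 0 or 240 min library (-0.92 and -0.79) and otherwise lost (-0.87 to -0.64). LTBP3 lost its trend without any 1 but the 240 min library (-1.15 to -0.91).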

How the data were processed

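RNA of 7 samples, 1 at each time of light, was counted with an adaptation of CEL-Seq2, per the labels' protocols. For each library the authors deposited estimated counts of reads, UMIs and transcripts per gene, which need not be whole. The submitters' processing notes name BWA and hg19, but no version, annotation or counter is given in the sources used here. Correcting the UMI counts for collisions among 4096 UMIs returned the transcript counts (largest difference 7.39e-10), and 81.5% of UMI counts were whole within 1e-06. The mapping summaries list reads on the sense strand only.

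The column of primer 4 was used, rounded to whole numbers. Spike-in rows were left out, at most 0.00999% of transcripts. The 480 min table ends at NME1-NME2: later genes were taken as missing there and genes absent before it as 0 (of 7059 genes at 10 or more counts in the 6 complete tables, 0 were missing). A gene was tested if 3 or more libraries held 10 or more counts of it. The test was the robust quasi-likelihood F test of edgeR 4.0.16 (R 4.3.3). TMM was computed over the 6 complete libraries, and the 480 min one was brought to their scale through its listed genes. The 7 libraries served genes named up to that end and 6 the later ones, with Benjamini-Hochberg adjustment over all together, threshold 0.05. For genes fitted on 7 libraries, residual degrees of freedom were 5 for the trend and 4 for the bend, and fewer for those fitted on 6. As no time was repeated, the spread includes departure from the fitted shape and may be technical. Ratios to 0 min carry a prior count of 2 on the log2 scale, and folds come from the counts without it. Intervals are 95%, exact binomial for ratios and shares and exact Poisson for plotted levels, and cover counting error only. The fits were tested on simulated counts with straight or parabolic courses and a fixed spread. That test cannot show how they behave on other shapes.

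The members and lists were chosen with earlier results of these data known, so no list is independent evidence. The values of 1 member are not reported here, and counts over members include it. Named are the other members called by the trend, the bend or at 2-fold, other members by range, and per partner list up to 3 called genes of largest size in each direction, of which mostly the first is given. UMI and read counts, RLE factors, count filters, DESeq2 1.42.0, log and rank time and each library left out were tried as alternatives.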

Additional observations from a re-analysis of the deposited data

How the results depend on the processing

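The number of integrin and laminin genes with a trend was 0 on the log and rank time scales, against 2, and ranged from 0 to 2 when 1 library was left out (0 without 60, 120, 480 or 600 min, 1 without 720 min). The number with a bend was 3 on the log time scale, against 9, and ranged from 3 to 7 when 1 library was left out (3 without 0 or 720 min, 4 without 240 min). Without 720 min LAMB3 gained a bend. Partner genes with a trend numbered 20 with DESeq2, against 6, and 1 to 13 when 1 library was left out, and with a bend 8 to 20, against 20. Over all genes, trends numbered 1595 with DESeq2, against 930, and 145 to 1486 when 1 library was left out, and bends 1285 to 4297, against 4242. Fewer libraries also leave fewer degrees of freedom.

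Genes at least 2-fold from 0 min numbered 1 (120 min), 4 (480 min) and 2 (600 min) on read counts, and 2 (120 min), 4 (240 min), 6 (480 min) and 3 (600 min) with a count minimum of 10. The summed beta level at 240 min over 0 min, -0.028 in log2, changed sign to 0.034 on UMI counts and was -0.10 on read counts. At 720 min the beta sum was -0.32 on UMI counts, -0.57 on read counts and -0.51 with total-count scaling, against -0.44. The laminin sum was -0.35, -0.65 and -0.55 under the same settings, against -0.48, and -0.25 at 240 min on read counts. The alpha sum at 720 min was -0.27 with total-count scaling, against -0.20. The cause was not tested. Of single genes, the uncalled bend of ITGB1, 0.09, was -0.080 on UMI counts and -0.12 to 0.21 when 1 library was left out, and the called bend of DDR2, 0.93, was -0.0091 on the log time scale. With read counts or DESeq2 the bends of LAMA3 and LAMA4 were lost. No paired analysis was possible because each time has 1 library. Libraries in which a member has under 50 counts, such as ITGAM in all but the 480 min one, are limited by depth.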
